A study of Mus musculus with 6 samples.

Results

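The EGF family ligands and the ERBB receptors were followed in mouse mammary tumour cells that were growing in the lung. The family was taken as 10 named genes, 7 ligands (Hbegf, Tgfa, Areg, Ereg, Btc, Egf and Epgn) and 3 receptors (Egfr, Erbb2 and Erbb3). A probe set counted when the platform annotation gave it exactly 1 of these symbols. By that rule 9 of the 10 genes had 20 probe sets, out of 18193 genes and 45101 probe sets on the array, and where a gene had several, the brightest on average led. Areg was not analysed here. Of the 9 genes, 6 passed the filter on dim genes and were tested (Hbegf, Tgfa, Btc, Epgn, Egfr and Erbb2). Erbb3, Egf and Ereg lay below it, and for them values are given without a call.

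MVT1 is a metastatic mouse mammary tumour line that carried green fluorescent protein (GFP). It was derived from a mammary tumour of a mouse with Myc and Vegf transgenes. Syngeneic FVB/N mice received the cells through a vein. GFP-positive cells were sorted from lungs 1 week later (1-week vehicle) or 2 weeks later. Gavage began at 1 week, with vehicle (2-week vehicle) or with GW2580 at 160 mg per kg daily (2-week GW2580), so the vehicle groups differ in time and in length of gavage. GW2580 inhibits the kinase of CSF1R, the receptor that macrophages need to survive and mature. Each group had 2 arrays (Affymetrix Mouse Genome 430 2.0). The vehicle arrays are described as 2 mice per group, while for GW2580 the labels state no number of mice, so the spread there may be technical. All mice carried the same tumour line.

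EGF family ligands are made as membrane-anchored precursors, and proteases of the ADAM family, above all ADAM17 and ADAM10, cut them free. Hbegf, Tgfa, Areg, Ereg, Btc, Egf and Epgn all bind EGFR, and Hbegf, Btc and Ereg also bind ERBB4. ERBB2 has no ligand of its own and pairs with the other receptors, and ERBB3 binds neuregulins but has a weak kinase. Bound receptors pair, phosphorylate each other and signal through RAS and ERK, PI3 kinase and phospholipase C gamma. In mouse mammary tumours a paracrine loop is known in which macrophages supply EGF and tumour cells supply CSF1, the ligand of CSF1R.

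Of the 10 genes, 4 lie side by side among the protein-coding genes of chromosome 5 in GRCm38.p6, in the order Epgn, Ereg, Areg, Btc, with Mthfd2l and Parm1 at the ends. The RefSeq promoter table of that build held 7 of the 10 genes (not Hbegf, Ereg or Erbb3). The upstream windows of Epgn and Egfr are shown because Epgn had, after Hbegf, the largest time difference of the family, and Egfr encodes the receptor that all 7 ligands bind. Each window is the 250 bases before the annotated start, on the plus strand, at chr5:91027267-91027516 for Epgn and chr11:16751953-16752202 for Egfr. Capitals mark a TATA box (TATAAA) or a GC box (GGGCGG), searched on both strands.

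Epgn: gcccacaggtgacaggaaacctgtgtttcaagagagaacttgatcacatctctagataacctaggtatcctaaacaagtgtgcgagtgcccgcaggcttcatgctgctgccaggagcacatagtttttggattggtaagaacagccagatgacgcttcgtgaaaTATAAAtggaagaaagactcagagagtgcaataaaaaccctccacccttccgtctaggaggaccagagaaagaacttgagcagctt
Egfr: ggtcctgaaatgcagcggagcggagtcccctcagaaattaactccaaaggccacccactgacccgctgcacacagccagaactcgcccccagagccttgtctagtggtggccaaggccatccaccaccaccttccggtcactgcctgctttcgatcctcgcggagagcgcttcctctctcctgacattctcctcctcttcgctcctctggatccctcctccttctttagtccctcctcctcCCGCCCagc

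The Epgn window held 46.8% G and C, 5 CpG dinucleotides and 1 TATA box. The Egfr window held 60.8% G and C, 11 CpG dinucleotides and 1 GC box. Over all 32851 windows of the table, 12.4% held the TATA letters and 32.7% the GC box letters. Neither window held an AP-1 site (TGANTCA) or a cAMP response element (TGACGTCA), which occurred in 6.75% and 1.55% of all windows. These matches are descriptions of letters only.

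Values are RMA log2 expression values, so a difference of 1 is a doubling, and a group value is a mean ± SD (n = 2 arrays). Arrays of a group correlated at r = 0.988 to 0.992 over the 13090 genes tested. The beta-actin signal was 1.2 higher at its 3' than at its 5' end on 1 array, replicate 2 of 2-week vehicle, and 0.38 to 0.50 higher on the other 5. For Gapdh the same difference was 0.92 on that array and -0.13 to -0.10 on the other 5. Of markers for the labelled tumour epithelium, the simple-epithelial keratin genes Krt8 (13.5 to 13.8 on the 6 arrays) and Krt18 (12.9 to 13.4) were bright and Epcam passed the filter (6.85 to 7.31). Of 13 epithelial markers 9 passed it, while the adhesion gene Cdh1 (mean 3.67) and Esrp1, an epithelial splicing regulator (3.73), did not. All 9 were lower at 2 weeks than at 1 week in the vehicle groups (median -0.23, against 0.02 over all genes). With GW2580 6 of the 9 were higher than with vehicle (median 0.18, against -0.05), and none was called by limma in either comparison. These were bulk samples, in which fewer cells of a type and less RNA per cell cannot be told apart.

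The comparison of 2-week with 1-week vehicle arrays asked how tumour cells differ between early and later metastases. The ligand genes Hbegf and Tgfa fell, and no receptor gene was called. These were 2 of the 6 tested members, against 6.45% of all genes tested (2.71% called lower and 3.74% higher), at an adjusted p under 0.05 by limma. The groups did not overlap for 5 of the 6 members, against 56.7% of all genes, and 3 had an unadjusted p under 0.05, against 23.6%. The median difference of the 6 was -0.61, against 0.02 over all genes tested. The members were chosen with earlier results of these data known, so these shares are descriptions.

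Hbegf encodes heparin-binding EGF-like growth factor, a ligand of EGFR and ERBB4 that growth signals and injury induce quickly in epithelia. It read 10.98 and 10.87 at 1 week, 8.95 and 9.32 on the 2-week vehicle arrays, and 10.73 and 9.33 with GW2580. The 1-week arrays were thus the highest, both 2-week vehicle arrays were low, and the GW2580 arrays split, 1 near each vehicle group. Between 1 and 2 weeks Hbegf fell 3.47-fold, from 10.93 ± 0.07 to 9.13 ± 0.26, which is a log2 difference of -1.79 (SE 0.38, 95% CI -2.68 to -0.91, limma adjusted p 0.0374). Only 0.16% of tested genes had a difference at or below this one. Its second probe set read 10.78 and 10.70 at 1 week and 8.84 and 9.27 on the 2-week vehicle arrays, a difference of -1.68 (SE 0.27, limma adjusted p 0.0277 over all 45037 non-control probe sets, of which 2.39% passed). In that fit the leading probe set did not pass (limma adjusted p 0.0589). Its call was also lost without any one of the 4 arrays compared (differences -1.61 to -1.98, limma adjusted p 0.0921 to 0.263) and with a trended, robust variance model (limma adjusted p 0.103).

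**Figure D1:**
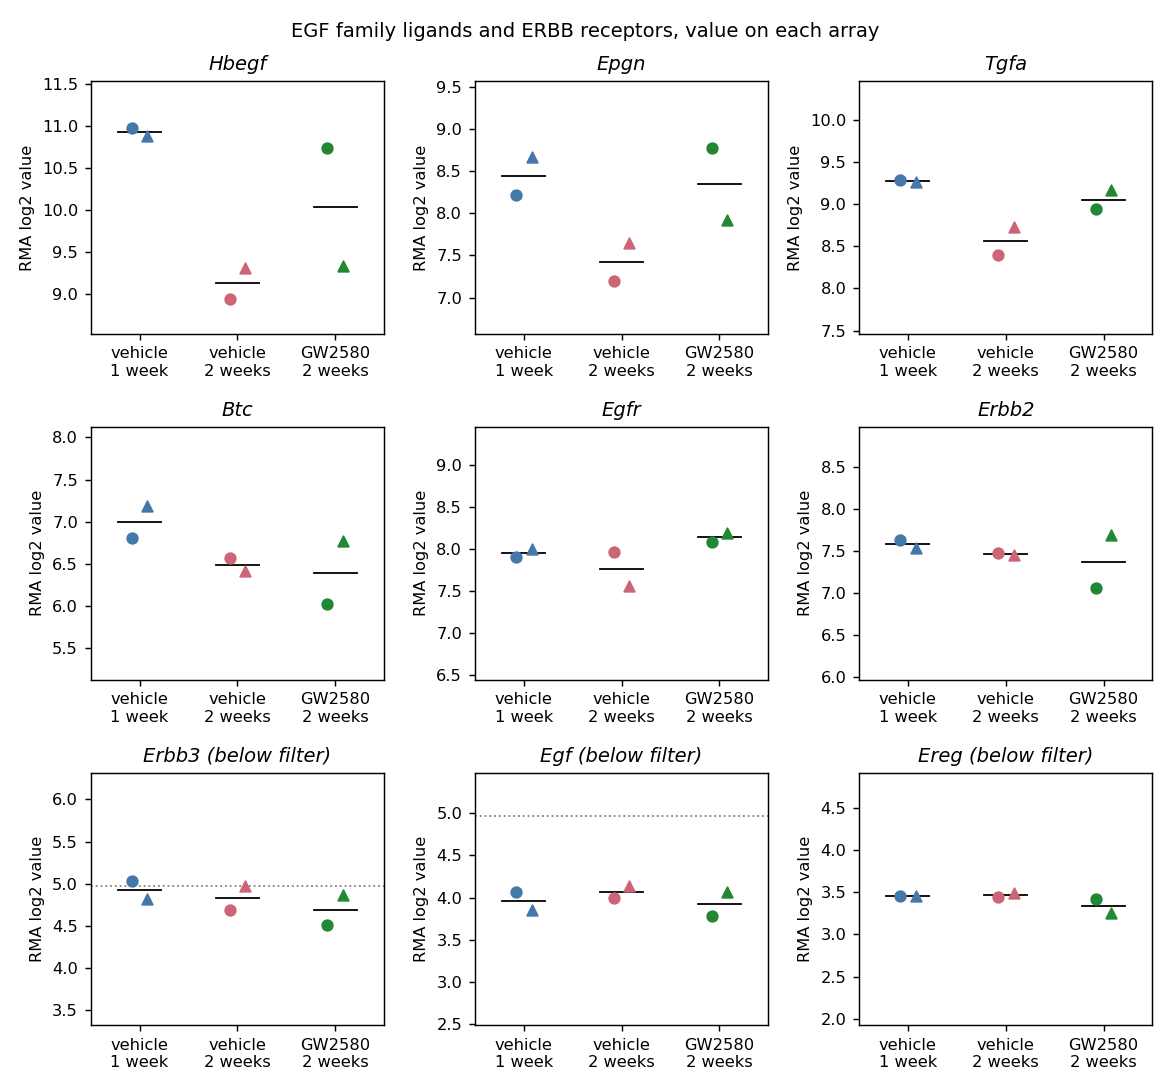
RMA log2 value of the leading probe set of 9 family genes on each of the 6 arrays (circle, replicate 1; triangle, replicate 2; bar, mean of the 2 arrays of a group; dotted line, filter on dim genes at 4.97; every panel spans the same number of log2 units). Hbegf falls from 10.93 to 9.13 between the vehicle groups and its GW2580 arrays lie apart at 10.73 and 9.33, while Egf and Ereg stay below the filter on every array.

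Tgfa encodes transforming growth factor alpha, an EGFR ligand that mammary epithelium makes itself. It read 9.28 and 9.26 at 1 week, 8.39 and 8.73 on the 2-week vehicle arrays, and 8.94 and 9.16 with GW2580. The 3 groups did not overlap, with the GW2580 arrays between the vehicle groups. Tgfa fell 1.64-fold between 1 and 2 weeks, a log2 difference of -0.71 (SE 0.15, 95% CI -1.07 to -0.36, limma adjusted p 0.0384). Its other probe sets, both above the filter, differed by -0.44 and -0.19 and did not pass; the first of them is of the type (s_at) that can match transcripts of more than 1 gene. The mean of all Tgfa probe sets differed by -0.45 (limma adjusted p 0.103). The call was lost without any one of the 4 arrays compared, where the differences were -0.55 to -0.88 (limma adjusted p 0.0671 to 0.253).

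Epgn encodes epigen, an EGFR ligand of low affinity found in epithelia. It read 8.22 and 8.67 at 1 week, 7.19 and 7.65 on the 2-week vehicle arrays, and 8.78 and 7.92 with GW2580. Both 2-week vehicle arrays lay below all the others. The time difference was -1.02 (SE 0.29, 95% CI -1.70 to -0.35) and did not pass (limma adjusted p 0.0784). It passed at the same difference when only the 4 vehicle arrays were fitted (limma adjusted p 0.0373). Epgn had a single probe set.

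Btc encodes betacellulin, a ligand of EGFR and ERBB4. It read 6.80 and 7.18 at 1 week, 6.57 and 6.41 on the 2-week vehicle arrays, and 6.03 and 6.76 with GW2580. The 1-week arrays were the highest of the 6, and the lowest was replicate 1 of GW2580. The time difference of -0.50 (SE 0.24, 95% CI -1.06 to 0.06) did not pass (limma adjusted p 0.262). Its second probe set lay below the filter at a mean of 3.87.

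Egf and Ereg were dim. Egf encodes the founding ligand of the family, which macrophages supply in mammary tumours. It read 4.06 and 3.85, 4.0 and 4.14, and 3.79 and 4.06 in the 1-week, 2-week vehicle and GW2580 groups. Ereg, which encodes epiregulin, read 3.26 to 3.49 on the 6 arrays. Neither gene exceeded the filter of 4.97 on any array, and their time differences on the probe set fit were 0.11 (SE 0.15) and 0.01 (SE 0.12). Within the ligand cluster of chromosome 5, Epgn and Btc were thus above the filter and Ereg below it.

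Egfr, the receptor of all 7 ligands, read 7.90 and 8.0 at 1 week, 7.97 and 7.56 on the 2-week vehicle arrays, and 8.08 and 8.20 with GW2580 on its leading probe set. The vehicle groups overlapped, and the lowest array was replicate 2 of the 2-week vehicle group. The time difference was -0.18 (SE 0.16, 95% CI -0.55 to 0.18, limma adjusted p 0.549), and it was 0.02 without that array. The 6 probe sets of Egfr above the filter did not move together, with 4 below 0 and 2 above 0. The largest difference was on the third brightest, which read 6.41 and 6.49 at 1 week, 7.08 and 6.94 on the 2-week vehicle arrays, and 6.66 and 6.95 with GW2580. It was higher on all 4 arrays from 2 weeks than on those from 1 week, and differed by 0.56 between the vehicle groups (SE 0.14, limma adjusted p 0.0906 over all probe sets). Which Egfr transcripts each probe set detects was not tested.

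Erbb2, the partner receptor without a ligand, read 7.63 and 7.54 at 1 week, 7.48 and 7.45 on the 2-week vehicle arrays, and 7.06 and 7.69 with GW2580. The 4 vehicle arrays spanned less than the 2 GW2580 arrays did. The time difference was -0.12 (SE 0.20, 95% CI -0.58 to 0.34, limma adjusted p 0.782). Erbb3, the neuregulin receptor, had a mean of 4.82 on its leading probe set and 3.9 on the other, and read 4.52 to 5.04 on the first. Its time difference was -0.10 (SE 0.17) on the probe set fit.

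**Figure D2:**
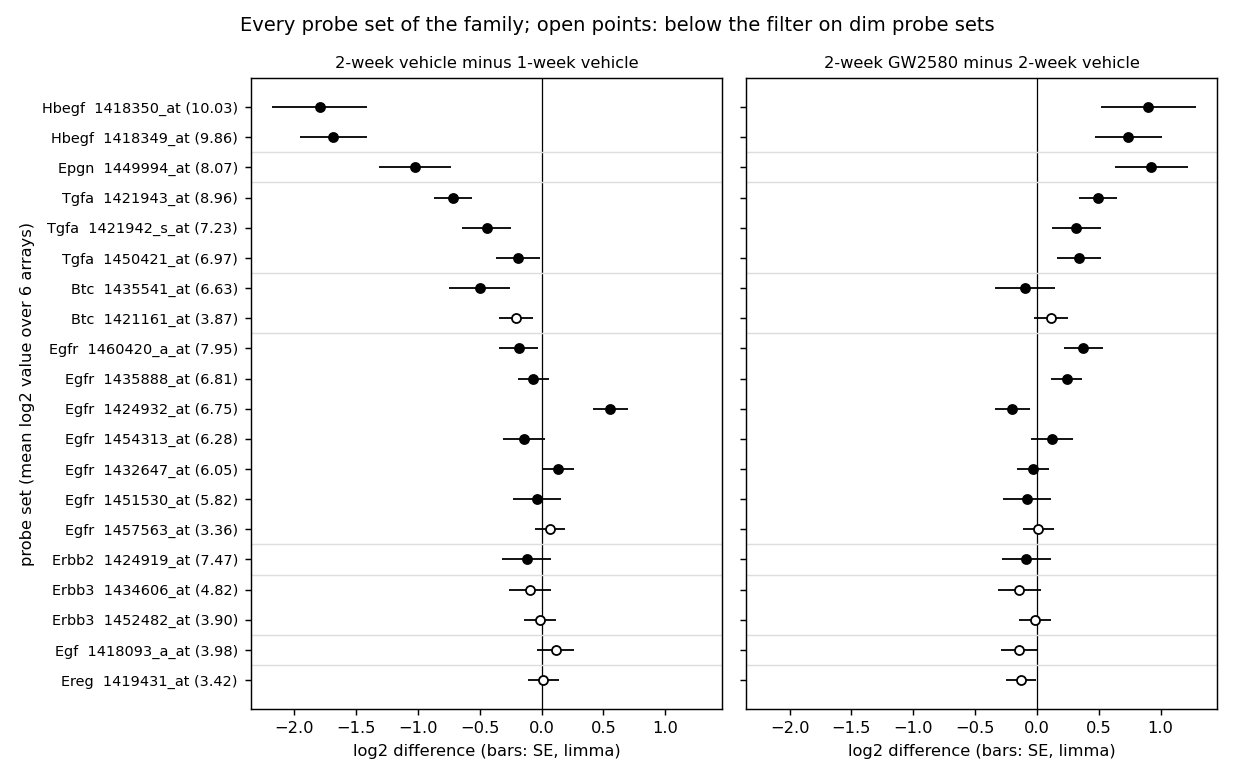
Log2 difference of each of the 20 probe sets of the family (points; bars, SE from the limma fit on all probe sets), ordered by gene and with the mean log2 value over 6 arrays in brackets; open points lie below the filter. Both Hbegf probe sets lie at -1.79 and -1.68 over time and above 0 with GW2580, while the Egfr probe sets lie on both sides of 0.

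GW2580 was set against vehicle at 2 weeks to ask how inhibition of CSF1R affects the tumour cells. None of the 6 tested members passed by limma, against 0.367% of all genes tested. At an unadjusted p under 0.05 there were 4 members (Hbegf, Epgn, Tgfa and Egfr), all higher with GW2580, against 18% of all genes. The same 4 had groups that did not overlap, against 49.8% of all genes, though for Hbegf the margin was 9.33 against 9.32. The median difference of the 6 members was 0.43, against -0.05 over all genes. This comparison and the time comparison share the 2-week vehicle arrays, so opposite signs in them are not independent.

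Hbegf differed by 0.90 (SE 0.38, 95% CI 0.02 to 1.78, limma adjusted p 0.268). The 2 GW2580 arrays differed by 1.4 from each other, a gap that 0.344% of tested genes reached in this group, where the median gap was 0.18. Without replicate 2 of GW2580 the difference was 1.60 (limma adjusted p 0.0429), and without replicate 1 it was 0.20. Hbegf with GW2580 therefore cannot be given as a single level from these 2 arrays.

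Epgn differed by 0.93 (SE 0.29, 95% CI 0.25 to 1.60, limma adjusted p 0.164). Its GW2580 arrays also lay apart, by 0.86, with replicate 1 the higher as for Hbegf. The difference was 1.35 without replicate 2 and 0.50 without replicate 1. Tgfa differed by 0.49 (SE 0.15, 95% CI 0.14 to 0.85, limma adjusted p 0.161), and here replicate 2 was the higher, by 0.22. Egfr differed by 0.37 (SE 0.16, 95% CI 0.0067 to 0.74, limma adjusted p 0.27) on its leading probe set, and 3 of its 6 probe sets above the filter lay above 0. The Egfr difference ranged from 0.06 to 0.57 over 15 settings of the analysis. On that probe set the 2-week vehicle arrays read 7.97 and 7.56, the lower on the array with the larger 3' to 5' differences.

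Btc and Erbb2 showed the opposite split, with replicate 1 of GW2580 the lower by 0.74 and 0.63. Btc differed by -0.09 (95% CI -0.65 to 0.46) and Erbb2 by -0.09 (95% CI -0.55 to 0.37), with limma adjusted p of 0.872 and 0.853. Without replicate 1 of GW2580 both signs turned, to 0.27 and 0.23. Egf, Ereg and Erbb3 differed by -0.15, -0.13 and -0.14 on the probe set fit and remained dim.

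Set against the 1-week arrays, no member passed with GW2580 by limma (0.512% of all genes did), and 2 of 6 had an unadjusted p under 0.05, against 17% of all genes. The groups did not overlap for 4 of the 6, against 46.7% of all genes. Hbegf differed by -0.89 (SE 0.38, limma adjusted p 0.289) and Btc by -0.60 (SE 0.24, limma adjusted p 0.264). Epgn differed by -0.10 (95% CI -0.77 to 0.58), Tgfa by -0.22, Egfr by 0.19 and Erbb2 by -0.21. Without replicate 1 of GW2580, Hbegf differed by -1.59 and passed (limma adjusted p 0.0356). By group mean of the leading probe sets the order for Hbegf, Tgfa and Epgn was 1-week vehicle, GW2580, 2-week vehicle, and among these neighbouring groups no difference involving GW2580 passed. The other Tgfa probe sets differed between GW2580 and 1 week by -0.12 and 0.15. On the last of them GW2580 was the highest group, at 7.14 against 6.98 at 1 week.

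**Figure D3:**
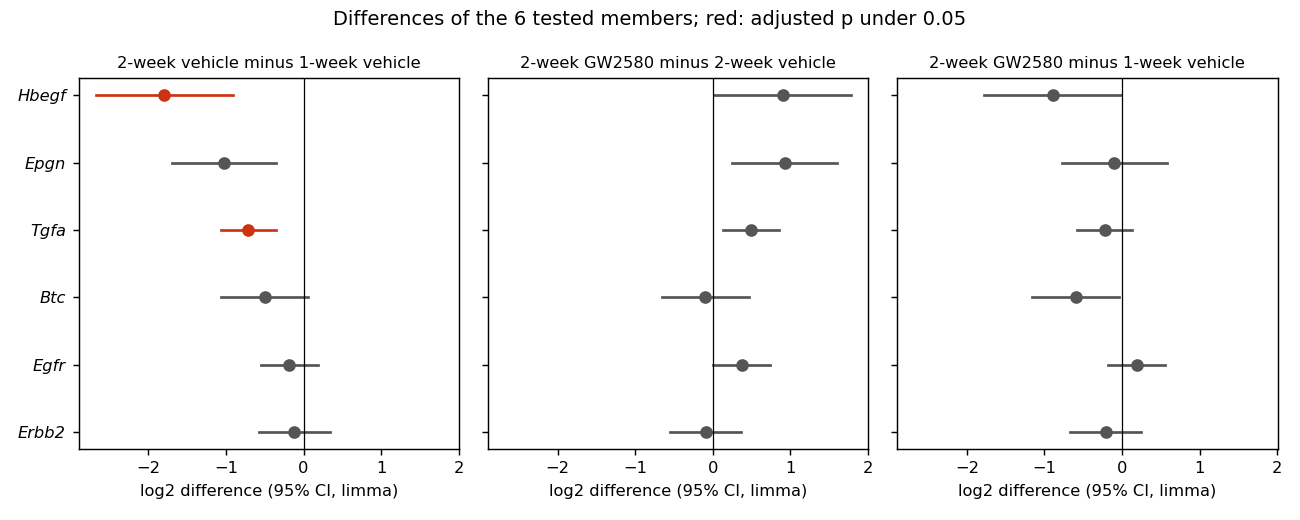
Log2 differences (points) with 95% confidence intervals (lines) from limma for the 6 tested members in the 3 comparisons, with called differences in red. Hbegf at -1.79 and Tgfa at -0.71 are called over time, and no member is called in the comparisons with GW2580.

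How the members varied together over the 6 arrays is described by Pearson correlations, whose points share groups. Hbegf and Epgn correlated at 0.89, and Tgfa with these at 0.73 and 0.73. Btc and Erbb2 correlated at 0.80, and each was at 0.18 or below with Hbegf. Of the other 13089 tested genes, those most like Hbegf were Nfkbie, which encodes an inhibitor of NF-kB (r = 0.997), Phlda1 (0.989) and the calmodulin kinase gene Camk2g (0.988). Nfkbie read 8.19 and 8.17 at 1 week, 7.32 and 7.44 on the 2-week vehicle arrays, and 8.03 and 7.48 with GW2580. Nfkbie was picked for its likeness to Hbegf over these same 6 arrays, so its similar GW2580 split is not a separate observation. Those most like Tgfa were Gid8 (r = 0.994), Lbh (0.989) and the kinase gene Stk16 (0.988).

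Markers of other cells moved with these ligands on some arrays. Scgb1a1, the secretoglobin of lung club cells and the brightest of the lung epithelium markers, read 11.31 and 9.59 at 1 week, 6.49 and 8.08 on the 2-week vehicle arrays, and 10.91 and 7.59 with GW2580. Col3a1, a collagen of fibroblasts and the brightest of its list, read 11.68 and 10.51, 9.29 and 9.49, and 10.90 and 8.98 on the same arrays. Replicate 1 of GW2580 was thus high for both markers, as it was for Hbegf and Epgn. The 1-week arrays lay apart for both markers but together for Hbegf (10.98 and 10.87), and Epgn was the lower on the array where both markers were higher. The alveolar surfactant gene Sftpc went another way, at 8.33 and 9.29, 9.98 and 9.25, and 7.90 and 7.19.

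Over whole lists the arrays lay closer together. The mean over 10 lung epithelium markers, all of them above the filter, was 7.47 and 7.22 at 1 week. It was 7.11 and 7.11 on the 2-week vehicle arrays, and 7.20 and 6.45 with GW2580. This lung mean joins genes that moved in opposite directions. Of the 10, 7 were above 0 and 3 below over time, and 3 above and 7 below with GW2580. Scgb3a2, a second secretoglobin gene named after its values were seen, differed by -2.26 over time and by 1.64 with GW2580. Scgb1a1 differed by -3.16 and 1.97, and none of these 4 differences passed. By limma 2 of the 10 were called lower with GW2580, where 0.367% of all genes tested were called. Over time 1 was called higher, where 3.74% of all genes were. The called genes, named after their values were seen, were the surfactant genes Sftpd (0.89 over time, limma adjusted p 0.0251, and -1.12 with GW2580) and Sftpa1 (-1.78 with GW2580), opposite in sign to Hbegf and Tgfa. The mean over 11 fibroblast and smooth muscle markers, 9 of them above the filter, was 7.57 and 6.78, 6.55 and 6.57, and 6.85 and 6.32. Of those 9, 8 were below 0 over time (median -0.55, against 0.02 over all genes) and none was called by limma. Col1a2, the second brightest of this list, differed by -1.52 over time (SE 0.58) and by 0.45 with GW2580 (SE 0.58). For 13 macrophage and monocyte markers, 12 of them above the filter, the mean was 6.90 and 6.92, 6.87 and 7.0, and 6.67 and 7.02. Cd14 and Cd68 were the brightest. Of the 12, 4 were above 0 and 8 below, both over time and with GW2580, and none was called by limma. Over time Cd68 differed by 0.98 (SE 0.32, limma adjusted p 0.115) and Cd14 by 0.06. With GW2580 they differed by -0.43 and -0.02, and C1qa, named after its values were seen, by -0.73 (SE 0.24, limma adjusted p 0.18). The neutrophil genes S100a8 and S100a9 led 10 other leukocyte markers (8 above the filter), whose mean was 5.81 on replicate 1 of GW2580 and 6.13 to 6.34 on the other arrays. That mean joins unlike genes. Ptprc, the pan-leukocyte gene of CD45, named after its values were seen, fell over time by 0.61 (SE 0.13, limma adjusted p 0.0387), in the direction of Hbegf and Tgfa, and differed by -0.12 with GW2580. S100a8 differed by 1.76 over time and by -1.80 with GW2580, and neither passed. The mean of 9 endothelial markers (5 above the filter, Plvap and Kdr the brightest) lay between 5.28 and 5.50, but Plvap, a gene of fenestrated endothelium, read 9.03 and 8.79 at 1 week, 8.34 and 7.06 on the 2-week vehicle arrays, and 9.43 and 9.06 with GW2580. Plvap thus had the signs of Hbegf, Tgfa and Epgn in both comparisons, with differences of -1.20 (SE 0.36, limma adjusted p 0.0879) and 1.54 (SE 0.36, limma adjusted p 0.0971). Tie1, also above the filter and named after its values were seen, went the other way. It differed by 0.86 over time (SE 0.26, limma adjusted p 0.0924) and by -0.52 with GW2580. Of the 5 endothelial markers above the filter, 2 were above 0 and 3 below in each of these comparisons, and none was called. The part of such cells in the ligand differences was not tested.

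**Figure D4:**
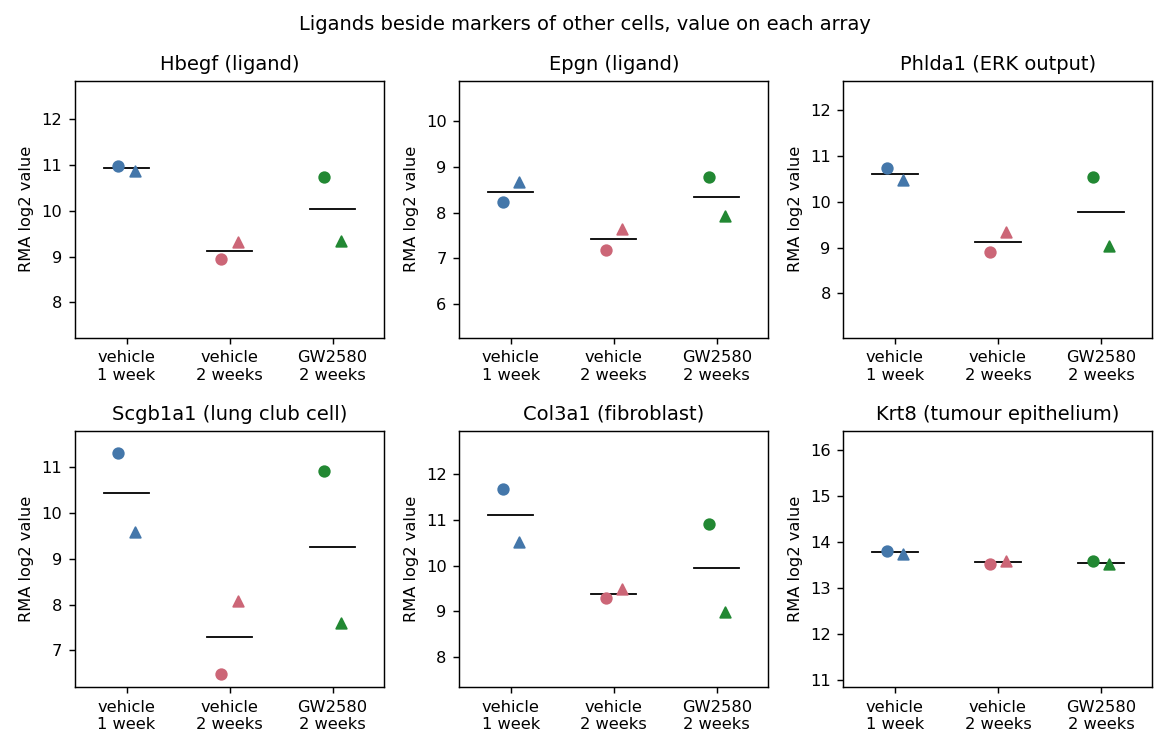
RMA log2 values on each array (circle, replicate 1; triangle, replicate 2; bar, mean of the 2 arrays) for Hbegf, Epgn, the ERK output gene Phlda1 and the markers Scgb1a1, Col3a1 and Krt8, each panel spanning the same number of log2 units. Replicate 1 of GW2580 is the higher of its pair for Hbegf (10.73), Scgb1a1 (10.91) and Col3a1 (10.90), while Krt8 spans 13.5 to 13.8, with both 1-week arrays the highest.

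The rest of the pathway was read from lists of genes with known roles. Of the neuregulin genes and Erbb4, the fourth receptor gene, only Nrg2 among 5 passed the filter, and it differed by -0.17 over time (SE 0.14) and by 0.03 with GW2580. Erbb4 had a mean of 3.21, and Nrg1, Nrg3 and Nrg4 had means of 3.48, 3.41 and 4.50. Of 10 tested genes for ligand shedding, none was called by limma in either comparison (median -0.13 over time and 0.09 with GW2580). The nearest to the threshold over time were the metalloproteinase genes Adam8 (-0.58, SE 0.17, limma adjusted p 0.0813) and Adam15 (0.40, SE 0.13, limma adjusted p 0.107). With GW2580 they were Adam15 (-0.28) and Adam9 (-0.27). Adam17, named here after its values were seen because it cuts most of these ligands, read 9.77 and 9.98 at 1 week, 9.35 and 9.72 on the 2-week vehicle arrays, and 9.52 and 9.77 with GW2580. Its time difference was -0.34 (SE 0.17, limma adjusted p 0.271).

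Of 21 tested adaptor and kinase genes, 1 was called over time, where 6.45% of all genes tested were, so the count of the list does not exceed that share. Plcg1, which encodes the phospholipase C gamma 1 that docks on active EGFR, read 8.37 and 8.86 at 1 week and 9.41 and 9.60 on the 2-week vehicle arrays, and rose by 0.89 (SE 0.19, limma adjusted p 0.0382). The mean of all its probe sets differed by 0.19 and did not pass, nor did the leading one without replicate 1 of the 1-week group (0.64) or without either 2-week vehicle array (0.98 and 0.80). The median of these 21 genes was 0.10. With GW2580 none of them passed, and Grb2, the adaptor between receptor and RAS, differed by 0.38 (SE 0.13, limma adjusted p 0.188) and the RAS activator gene Sos1 by 0.34.

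Of 17 tested negative regulators none passed in either comparison. Errfi1, whose product binds and blocks the EGFR kinase and which EGFR signalling itself induces, read 10.63 and 10.52 at 1 week, 10.01 and 10.19 on the 2-week vehicle arrays, and 10.56 and 10.59 with GW2580. Its 2 GW2580 arrays lay together, unlike those of Hbegf. It differed by -0.48 over time (SE 0.13, limma adjusted p 0.0664) and by 0.47 with GW2580 (SE 0.13, limma adjusted p 0.129). The ubiquitin ligase genes Cblb and Cbl, whose products send EGFR to degradation, differed by 0.56 and -0.30 over time and by -0.03 and 0.29 with GW2580, and none of these passed.

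Of 9 tested genes that ERK signalling is known to induce, 1 was called lower over time by limma, where 2.71% of all genes tested were. A single call in so short a list is not read as a result about the list. The median was -0.40 against 0.02 over all genes, and 7 of the 9 differences were below 0. Dusp6, an ERK phosphatase, read 10.75 and 10.79 at 1 week, 9.97 and 10.26 on the 2-week vehicle arrays, and 10.56 and 10.32 with GW2580. It fell by 0.65 on the log2 scale (SE 0.15, limma adjusted p 0.0442), a call lost without any one of the 4 arrays compared (-0.51 to -0.80). Phlda1 read 10.73 and 10.47, 8.90 and 9.34, and 10.54 and 9.02, so that its GW2580 arrays split as those of Hbegf did. Phlda1 was also among the tested genes most like Hbegf over these same arrays, so its similar split is not a separate observation. Phlda1 differed by -1.48 over time (SE 0.42, limma adjusted p 0.0763) and by 0.66 with GW2580 (SE 0.42). With GW2580 none of the 9 passed, and their median was 0.07.

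**Figure D5:**
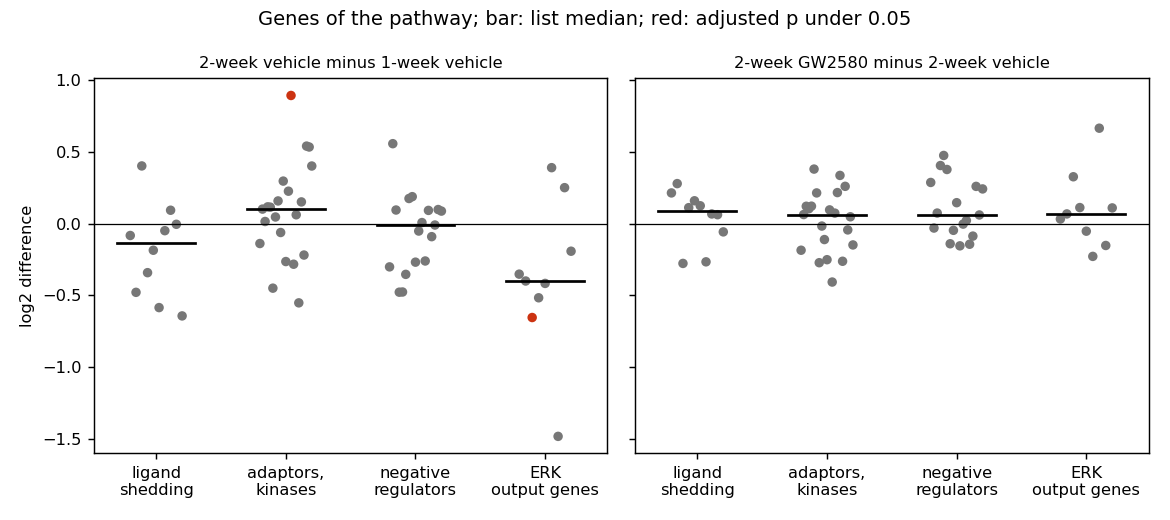
Log2 differences of the tested genes in 4 pathway lists (points; bar, list median; red, adjusted p under 0.05) over time and with GW2580. Over time the ERK output genes have a median of -0.40 and Dusp6 and Plcg1 are the 2 called genes, and with GW2580 no gene of these lists is called.

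For the loop of EGF and CSF1, the sorted cells read Csf1 at 10.18 and 9.96 at 1 week, 9.34 and 9.64 on the 2-week vehicle arrays, and 10.21 and 9.93 with GW2580. The 2-week vehicle arrays were the lowest. Csf1 differed by -0.58 over time (SE 0.16, limma adjusted p 0.0768) and by 0.58 with GW2580 (SE 0.16, limma adjusted p 0.137), and GW2580 differed from 1 week by -0.0017 (SE 0.16). Csf1r read 7.22 to 7.91 on the 6 arrays, and its GW2580 arrays lay apart at 7.22 and 7.84. It differed by -0.02 with GW2580 (SE 0.20, limma adjusted p 0.977) and by -0.26 over time (SE 0.20, limma adjusted p 0.492).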

How the data were processed

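RNA of sorted tumour cells was hybridised to 6 arrays. Per the submitters' processing notes, the authors made log2 expression values with RMA, which corrects background, quantile-normalises across arrays and summarises each probe set; its version is not stated there. Quantile normalisation hides a shift shared by most genes. The deposited log2 table was used without further scaling. After 64 control probe sets were removed, 45037 remained, of which 34945 had 1 gene symbol, 932 several and 9160 none by the platform annotation. By gene identifier 34741 matched the RefSeq table of GRCm38.p6, which changed 0 symbols.

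For each gene the probe set with the highest mean was kept, genes below 4.97 (the 40th percentile of probe set means) were left out, and 13090 were tested with limma 3.58.1 in R 4.3.3: 3 group means over 6 arrays, 3 residual degrees of freedom, eBayes without trend, Benjamini-Hochberg adjustment, calls at an adjusted p under 0.05. Single probe sets were fitted the same way without the filter. The fit was tested on simulated data. With arrays there is no read depth, and precision is limited by how many there are. A permutation of 2 against 2 arrays cannot reach 0.05, so none was used.

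Members, lists and rules were chosen with earlier results of these data known. Named genes were all members, up to 4 called genes (otherwise the 2 with the smallest p) of each pathway list and comparison, the 2 brightest markers of each cell type, Csf1, Csf1r and the 3 genes most correlated with each called member. Epcam, Cdh1, Esrp1 and the genes marked as named after their values were seen lie outside this rule. Alternatives changed the filter, probe set choice, scaling, variance model, arrays fitted and replicate block, and left out each array.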

Additional observations from a re-analysis of the deposited data

How the results depend on the processing

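The direction of the Hbegf and Tgfa differences over time held in every setting tried, but each was called in 9 of 15. In each comparison, leaving out an array of the group not compared gave the same fit as only the 4 arrays compared. Those settings repeat 1 result, so the 15 are not separate, and the ranges below include such repeats. Of the 2 members called over time, 0 were called on their leading probe sets with every probe set tested by itself (limma adjusted p 0.0589 for both, while the second Hbegf probe set passed), 1 with the mean of all probe sets and 1 with a trended, robust variance model. Leaving out 1 array gave 0 to 3 called members over time (0 without any one of the 4 vehicle arrays), 0 to 1 with GW2580 against 2-week vehicle (1 without GW2580 replicate 2) and 0 to 1 with GW2580 against 1 week (1 without GW2580 replicate 1). The cause was not tested.

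Over all genes, leaving out 1 array gave 0 to 1059 calls over time (main value 844), 0 to 167 with GW2580 against 2-week vehicle (48) and 0 to 169 against 1 week (67). At 0 calls by limma over time, without 1-week replicate 1, 1630 genes had an unadjusted p under 0.05. For GW2580 against 2-week vehicle there were 74 calls with no filter, 193 with every probe set, 131 with the trended, robust model and 0 with only the 4 arrays compared (limma, 2120 at an unadjusted p under 0.05). Against 1 week there were 36 with every probe set, 139 with the trended, robust model and 24 with only the 4 arrays.

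Correlations of the replicate differences between groups were 0.002 for 1-week with 2-week vehicle and 0.009 for 2-week vehicle with GW2580. For 1-week vehicle with GW2580 the correlation was 0.292. Whether the replicate numbers pair any of the arrays was not tested. With the replicate block there were 1223, 154 and 182 calls in the 3 comparisons, and 2, 0 and 0 members.

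Signs turned for members that were not called. Egfr over time was 0.046 with the mean of all probe sets and -0.39 to 0.017 with 1 array left out. Btc with GW2580 against 2-week vehicle was 0.0086 with the mean of all probe sets and -0.46 to 0.27 with 1 array left out, and Erbb2 was -0.40 to 0.23. Against 1 week, leaving out 1 array gave -0.53 to 0.33 for Epgn and -0.53 to 0.11 for Erbb2.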
